A study of Mus musculus with 18 samples.

Results

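Oocytes of Lsm14b-/- mice (KO, without the gene for the RNA-binding protein LSM14B) were compared with oocytes of wild-type (WT) mice collected 14 h after human chorionic gonadotropin (hCG), the hormone used to trigger ovulation. The comparison rests on 6 of the 18 libraries of the series, 3 from WT and 3 from KO, each made from 15 oocytes, and on the 8133 of 27874 genes that reached 1 FPKM in at least 3 of these 6 libraries. FPKM relates the reads of a gene to the length of its exons and to the total of its library. The remaining 12 libraries hold both genotypes at the germinal vesicle stage (GV), before meiosis resumes, and at metaphase I (MI). The labels denote the 14 h collection as MII, metaphase II, for both genotypes and do not say whether each KO oocyte had reached it. The labels name no strain, age or design of the deleted allele, and nothing in them says that the 3 replicates of a group came from separate mice, so p-values measure the spread between these libraries, which may in part be technical.

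LSM14B is an RNA-binding protein of the LSM14 family, found in the cytoplasmic particles in which growing oocytes keep mRNA untranslated. A fully grown mouse oocyte is transcriptionally silent, so its mRNA pool changes during maturation through storage, lengthening and shortening of poly(A) tails, and decay. Some stored mRNAs are dormant, with short tails, and are polyadenylated and translated when meiosis resumes, among them those encoding the decay factors BTG4, CNOT7 and DCP1A. Many other maternal mRNAs lose their tails and are degraded before ovulation. Here cDNA was primed with oligo(dT), so a difference in FPKM can reflect the length of poly(A) tails as well as the number of molecules, and in a pooled sample fewer cells with an mRNA and less of it per cell cannot be told apart.

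Lsm14b itself (ENSMUSG00000039108, chromosome 2, 180024987 to 180035465, mm10 coordinates as in GENCODE vM21) had 9.803, 10.8 and 7.42 FPKM in the WT libraries and 0.106, 0.0214 and 0.211 FPKM in the KO libraries (log2 difference -3.205, SE 0.21, adjusted p = 3.45e-07). All 3 KO libraries lay below every WT library. The KO values came from 5, 1 and 10 reads and the WT values from 478, 513 and 349 reads. Lsm14a, its paralog, had 57.9, 45.05 and 49.6 FPKM in the WT libraries and 40.6, 33.6 and 46.3 FPKM in the KO libraries, and the groups overlapped (log2 difference -0.34, adjusted p = 0.214).

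The library total by which FPKM were scaled, inferred from the values, was 16172800 to 16861000 reads in the 6 libraries. In these libraries 7352 to 8144 genes reached 1 FPKM. Pearson correlations across genes, which are not independent replicates, were 0.974 to 0.987 between WT libraries, 0.967 to 0.981 between KO libraries and 0.868 to 0.883 between the genotypes. The 10 highest genes took 22.4% to 25.8% of all FPKM in WT and 18.3% to 21.3% in KO. All 18 oocyte markers examined, among them Gdf9, Bmp15, Zp3 and Mos, passed the filter. Of 31 listed cumulus and granulosa cell markers, Cyp19a1, Kitl and Serpine2 passed it, 5 were at 0 in all 6 libraries, and the summed level of the 31 was 134.9 to 158.3 FPKM in WT and 138.4 to 158.9 in KO, nearly all of it Serpine2. Markers of theca, stroma and endothelium summed to 6.41 to 8.18 FPKM in WT and 5.50 to 6.48 in KO. Markers of blood and immune cells summed to 2.75 to 4.62 FPKM in WT and 1.84 to 10.02 in KO, with the highest sum in KO replicate 3.

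In all, 3680 of the 8133 genes, or 45.2%, differed between the genotypes at an adjusted p under 0.05 (limma on log2(FPKM + 1), Benjamini-Hochberg adjustment). Of the genes tested, 1849 (22.7%) were higher in KO and 1831 (22.5%) were lower, with a median log2 difference of -0.03. A difference of at least 2-fold on this scale was reached by 991 of the higher and 779 of the lower genes, and one of at least 8-fold (log2 of 3) by 31 and 13. The 2 groups of 3 values did not overlap in 4442 genes, or 54.6%. Of the called genes, 2501 were called whichever single library was left out. In the following, rose and fell mean higher and lower in KO than in WT at 14 h, not a change over time, and fold differences on the log2(FPKM + 1) scale understate the change of genes with low values.

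**Figure D1:**
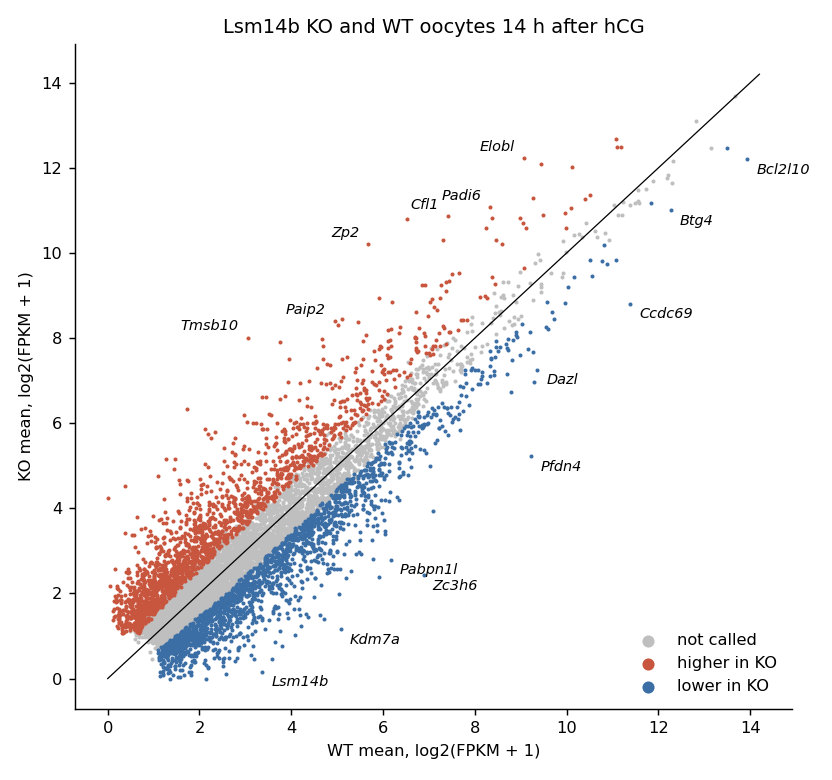
Log2 of the mean FPKM plus 1 of the 8133 tested genes, with 1 point a gene symbol, 14 h after hCG. The mean is over 3 WT libraries (x axis) and 3 KO libraries (y axis), with equal levels on the diagonal. The log2 differences in the text are instead between means of log2(FPKM + 1). The 1849 genes called higher in KO (red) include Tmsb10 and Zp2, and the 1831 called lower (blue) include Zc3h6, Pfdn4 and Kdm7a.

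The 20 largest rises were taken among called genes with a mean of at least 5 FPKM and no overlap between the groups. In order of size they were led by Tmsb10, Chchd2, Zp2 and Cd9. Those of the egg coat, the egg surface, the actin cytoskeleton and oocyte growth are given first, not in order of size. Tmsb10, a thymosin that binds actin monomers, was found at 6.55, 8.24 and 7.08 FPKM in the WT libraries and 292, 184 and 296 FPKM in the KO libraries (log2 difference 4.93, SE 0.23, adjusted p = 1.92e-08). Zp2, which encodes a glycoprotein of the zona pellucida, stood at 51.6, 48.8 and 50.6 FPKM in the WT libraries and 1219, 1367 and 939.9 FPKM in the KO libraries (log2 difference 4.501, SE 0.21, adjusted p = 1.92e-08). Cd9, a tetraspanin of the egg membrane needed for sperm fusion, had 17.9, 11.5 and 8.39 FPKM in the WT libraries and 246, 223 and 251 FPKM in the KO libraries (log2 difference 4.205, SE 0.25, adjusted p = 1.79e-07). In each of these genes every KO library lay more than 10-fold above every WT library. Cfl1, or cofilin, which severs actin filaments, was found at 158, 136 and 215 FPKM in the WT libraries and 1768, 2028 and 1783 FPKM in the KO libraries (log2 difference 3.47, SE 0.22, adjusted p = 2.38e-07). Nobox, a homeobox transcription factor of oocyte growth, stood at 33.6, 36.7 and 29.2 FPKM in the WT libraries and 458, 300.4 and 289 FPKM in the KO libraries (log2 difference 3.33, SE 0.23, adjusted p = 4.2e-07). The 3 WT values of both genes lay well below the lowest KO value.

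Other large rises were in genes of translation, signalling and mitochondria. Paip2, an inhibitor of the poly(A)-binding protein, had 29.2, 28.4 and 31.8 FPKM in the WT libraries and 363, 327 and 316 FPKM in the KO libraries (log2 difference 3.45, SE 0.19, adjusted p = 1.46e-07), with little spread in either group. Eif4h, a helper of the translation initiation helicase, was under 1 FPKM in every WT library, so that it passed the filter only through KO, and stood there at 13.9, 10.4 and 14.3 FPKM (log2 difference 3.15). Mapk3, which encodes the MAP kinase ERK1, stood at 28.8, 16.5 and 28.3 FPKM in the WT libraries and 249.9, 215 and 283 FPKM in the KO libraries (log2 difference 3.33). Chchd2, a mitochondrial protein gene (log2 difference 4.57), Ndufb3, a subunit of respiratory complex I (3.29), Cct4, a subunit of the TRiC chaperonin (3.43), and Map1lc3a, an LC3 protein of autophagosomes (3.36), rose as well. Others were Ppp2r2b, a regulatory subunit of the phosphatase PP2A (3.76), Pinlyp (3.63), Tceal8 (3.597), Rwdd1 (3.54), Dppa5a (3.299), the ferritin light chain gene Ftl1 (3.27) and Elobl (3.14). Other genes of the annotation cover 34.6% of the exon bases of Ftl1, 16.5% of those of Cfl1, 16.2% of those of Rwdd1 and 10.7% of those of Cd9, and without known strand their reads cannot be told apart there.

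The 20 largest falls, taken by the same rule, held genes of RNA metabolism, chromatin and protein folding. Zc3h6, which encodes a CCCH zinc finger protein, had 130.4, 116 and 104 FPKM in the WT libraries and 5.04, 4.06 and 4.06 FPKM in the KO libraries (log2 difference -4.45, SE 0.21, adjusted p = 1.92e-08). Pfdn4, a subunit of the prefoldin chaperone, was found at 510.4, 774 and 519 FPKM in the WT libraries and 40.2, 24.95 and 43.8 FPKM in the KO libraries (log2 difference -4.02, SE 0.25, adjusted p = 2.54e-07). Kdm7a, whose product demethylates histone H3, had 37.2, 33.6 and 27.4 FPKM in the WT libraries and 1.57, 0.676 and 1.42 FPKM in the KO libraries (log2 difference -3.94, SE 0.24, adjusted p = 2.3e-07). In all 3 genes the lowest WT value was more than 10-fold above the highest KO value. Other genes cover 28.7% of the exon bases of Pfdn4. Exosc3, of the cap of the RNA exosome, had 53.1, 70.4 and 54.5 FPKM in the WT libraries and 4.203, 2.52 and 5.87 FPKM in the KO libraries (log2 difference -3.58, SE 0.26, adjusted p = 6.38e-07). Pabpn1l, which in oocytes encodes a binder of poly(A), had 55.4, 72.97 and 85.1 FPKM in the WT libraries and 3.69, 5.29 and 8.87 FPKM in the KO libraries (log2 difference -3.42, SE 0.28, adjusted p = 1.47e-06). KO replicates of both genes varied more than WT replicates in proportion to their mean, without overlap.

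Further falls were in Srek1ip1 (log2 difference -3.32), in Ing1, a reader of histone H3 methylation (-3.13), in Pard6g, a polarity gene that passed the filter only through WT (-3.09), and in C1galt1c1, a chaperone of O-glycan synthesis (-2.98). Sft2d1 (-2.93), the cap methyltransferase gene Cmtr2 (-2.801), the transcription factor gene Tfap2c (-2.79), the Mediator subunit gene Med11 (-2.72), Tmem128 (-2.65), the chemokine receptor gene Cxcr3 (-2.65), Cth, an enzyme of cysteine synthesis (-2.58), Pdcl3, a cochaperone of TRiC (-2.53), Susd3 (-2.51) and Lrrc57 (-2.503) fell too. The most abundant of the 20 was Ccdc69, a coiled-coil protein gene, at 2621, 2623 and 2800.2 FPKM in the WT libraries and 469, 463 and 405 FPKM in the KO libraries (log2 difference -2.59, SE 0.19, adjusted p = 6.38e-07). All 40 genes were called whichever library was left out and in each of the 10 other fits tried. Their adjusted p was at most 1.12e-05 by limma as described and at most 0.0329 over these fits, the largest with no filter. The 40 genes were chosen from these same libraries as large called differences without overlap. That choice favours such calls, so they are a description only.

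**Figure D2:**
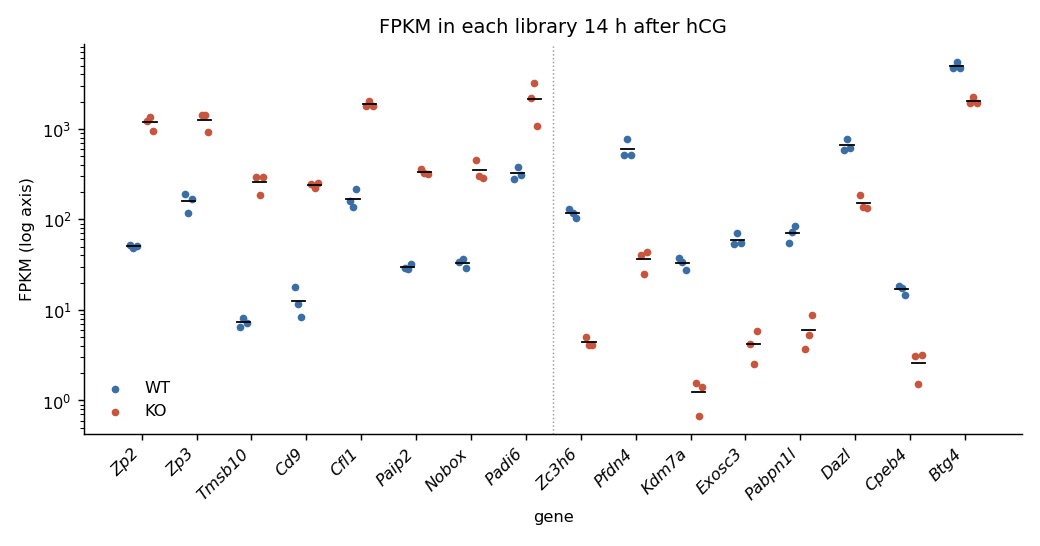
FPKM (log axis) of 16 genes in each of the 3 WT (blue) and 3 KO (red) libraries 14 h after hCG, with black bars at the group means. The 8 genes left of the dotted line were higher in KO and the 8 to its right lower.

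The annotated 3′ untranslated regions (UTRs) of the genes that rose and of those that fell differed in length and sequence. The cytoplasmic polyadenylation element, a U-rich motif bound by CPEB proteins that governs tail lengthening in maturing oocytes, was searched as TTTTAT or TTTTAAT on the transcript strand of the 3′ UTR. TTTTAAT can overlap the polyadenylation signal AATAAA. The search covered 6918 tested protein-coding genes with a 3′ UTR of at least 10 bases, from 1 annotated transcript a gene. A match is a run of letters and was not tested as a functional site. At least 1 match was present in 64.7% of these genes, in 49.3% of the 1604 that were higher in KO and in 76.3% of the 1496 that were lower. In the last 100 bases the shares were 22.0%, 15.1% and 30.1%. Among the 20 largest rises 4 held a match, and among the 20 largest falls 15 of the 19 with a 3′ UTR did.

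Windows of 30 bases (GENCODE vM21 transcripts on GRCm38, written 5′ to 3′ as DNA on the transcript strand) show the element in mRNAs that fell. They are shown because these genes are among the large falls, dormant mRNAs or decay factors, and capitals mark TTTTAT or TTTTAAT and the signals AATAAA or ATTAAA:
Exosc3 (chr4:45316619-45316648, minus strand): aaaaacTTTTATatAATAAActttgttggt
Tmem128 (chr5:38269605-38269634, plus strand): AATAAAatatTTTTATaattttcttgtgca
Cxcr3 (chrX:101731562-101731591, minus strand): gcccaaTTTTATttctagaaacctcactta
Orc6 (chr8:85308011-85308040, plus strand): tttaaaTTTTATttcactaaatgttatata
Plat (chr8:22782750-22782779, plus strand): tttataTTTTAATctattttagtttttact
Cnot7 (chr8:40493036-40493065, minus strand): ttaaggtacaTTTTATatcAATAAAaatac
Dcp1a (chr14:30527015-30527044, plus strand): atatttTTTTAATAAAatttcaaaaccaag
Btg4 (chr9:51119803-51119832, plus strand): atccctTTTTATgtctttttaaaagtttga
In Dcp1a the capitals are 1 run in which TTTTAAT and AATAAA share bases. In Cnot7 and Exosc3 the element lies just upstream of the signal. Each gene shown holds a match in the last 100 bases of its 3′ UTR. They do not stand for all of the genes that fell, 76.3% of which hold a match and 30.1% one in the last 100 bases.

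The same window around the polyadenylation signal of 4 genes that rose, whose short 3′ UTRs hold no match to the element, reads:
Zp2 (chr7:120132358-120132387, minus strand): tggacttgcaAATAAAgagactgcagttaa
Chchd2 (chr5:129881159-129881188, minus strand): agttaaaaaaAATAAAttggttattctgaa
Cfl1 (chr19:5494000-5494029, plus strand): aacaaaaaaacAATAAAaaggctaattaac
Padi6 (chr4:140727359-140727388, minus strand): ccatagagccAATAAAgcatggtattctga
These were chosen as large rises without the element and do not stand for all of the genes that rose, 49.3% of which hold a match.

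UTR length moved with the calls too: the median 3′ UTR was 654.5 bases in genes that rose, 1094 in genes that fell and 958.5 in all. Within 4 classes of 3′ UTR length the split remained. Of genes with up to 250 bases, 37.2% without a match rose and 16.8% fell, against 24.3% and 28.0% with a match. Of genes with over 1500 bases, 29.3% without a match rose and 9.77% fell, against 14.7% and 25.5% with a match. The Pumilio motif TGTANATA, where N is any base, was present in 19.0% of genes that rose and 29.9% of those that fell, and the AU-rich motif TATTTAT in 19.3% and 37.6%, against 26.2% and 29.3% of all. The length of a gene's exons moved with the calls as well: in 4 classes of near equal size, 36.8% of genes with the shortest exons rose and 20.5% fell, against 9.92% and 26.01% of those with the longest. Base composition differed too: the median share of G and C in the 3′ UTR was 43.7% in genes that rose, 40.1% in genes that fell and 42.2% in all. The motifs searched are rich in A and T. The part of base composition, and of length beyond these classes, in the shares of the motifs was not tested.

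**Figure D3:**
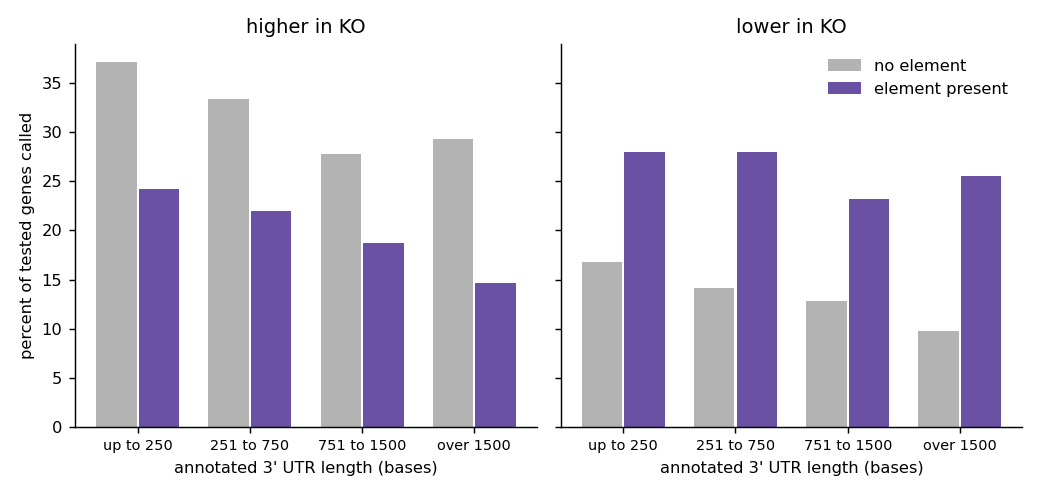
Percent of tested protein-coding genes called higher (left) and lower (right) in KO, by annotated 3′ UTR length, for genes without (grey) and with (purple) TTTTAT or TTTTAAT. In each of the 4 length classes genes with the element were less often higher and more often lower, as in 24.3% against 37.2% higher at up to 250 bases.

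The gene lists that follow were read against the shares over all genes tested, 22.7% higher and 22.5% lower. Members that passed the filter only because they were high in 1 genotype had to differ, so the number of these is given where it exceeds 2. Many members are named for a small p. That choice favours groups without overlap, seen in 54.6% of all genes tested. With no filter 27874 genes were tested, 1074 called higher and 1095 lower, and the counts of a list in that fit follow where they differ by more than 1.5 times. Among factors of mRNA storage particles, the class LSM14B belongs to, 41 of 53 members in the table were tested, 7 rose and 10 fell, Lsm14b among them. Patl2, an oocyte protein of the PAT1 family that represses translation, stood at 4.34, 2.298 and 3.49 FPKM in the WT libraries and 40.2, 30.6 and 24.5 FPKM in the KO libraries (log2 difference 2.905, SE 0.26, adjusted p = 2.52e-06). Ddx6, the helicase that partners LSM14 proteins, had 3.04, 4.51 and 3.44 FPKM in the WT libraries and 7.200, 6.803 and 6.56 FPKM in the KO libraries (log2 difference 0.76, SE 0.22, adjusted p = 0.0123; 0.0593 without WT replicate 1 and 0.058 without WT replicate 3). Ybx2, the germ-cell Y-box protein gene MSY2, was low and was found at 1.98, 1.48 and 2.25 FPKM in the WT libraries and 7.46, 3.61 and 12.1 FPKM in the KO libraries (log2 difference 1.47). The groups did not overlap in any of the 3. Rbpms2 (2.03), G3bp1 (1.18), Fxr2 (0.87; under 1 FPKM in every WT library) and Stau1 completed the rises. Dazl, a translational activator of the germ line, stood at 585, 766 and 620.4 FPKM in the WT libraries and 186, 137 and 134 FPKM in the KO libraries (log2 difference -2.11, SE 0.21, adjusted p = 7.49e-06). Fxr1, a relative of the fragile X protein gene (-0.85), and Atxn2, an ataxin (-0.83), also fell. Of the list, 5 rises and 4 falls were called whichever library was left out; Stau1 among the rises, and Ybx1, Upf1, Nanos2, Ago3, Atxn2l and Larp4 among the falls, each missed the threshold without at least 1 library. The count of falls was 5 without WT replicate 1 or KO replicate 2 and 6 without WT replicate 2 or KO replicate 1. With no filter 3 rose and 5 fell, and in 1 fit of all 18 libraries 4 rose and 5 fell.

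Of 27 tested factors of deadenylation, decapping and uridylation, 14 fell and 6 rose, with a median log2 difference of -0.63. In the CCR4-NOT deadenylase, which shortens poly(A) tails, Cnot8 had 142, 73.2 and 119 FPKM in the WT libraries and 42.7, 40.2 and 41.05 FPKM in the KO libraries (log2 difference -1.36, SE 0.24, adjusted p = 0.000602). Cnot3 was found at 11.6, 17.6 and 12.3 FPKM in the WT libraries and 2.45, 2.29 and 3.11 FPKM in the KO libraries (log2 difference -2.02, SE 0.23, adjusted p = 2.03e-05). Cnot7, whose element is printed above, stood at 92.7, 83.9 and 72.1 FPKM in the WT libraries and 50.8, 40.9 and 35.4 FPKM in the KO libraries (log2 difference -0.96). All WT values of these 3 subunits lay above all KO values. Cnot6 (-1.398) fell as well, and so did Cnot6l, Cnot2 and Cnot1, whose calls were lost without at least 1 library. Btg4, the oocyte adaptor of this deadenylase, had 4638, 5512 and 4687 FPKM in the WT libraries and 1948, 2274 and 1936 FPKM in the KO libraries (log2 difference -1.27, SE 0.19, adjusted p = 0.000173). The decapping genes Dcp1a, at 193, 148 and 203 FPKM in the WT libraries and 75.8, 62.6 and 55.4 FPKM in the KO libraries (log2 difference -1.47, SE 0.22, adjusted p = 0.000124), and Dcp2 (-1.19) fell, as did the exonuclease gene Xrn1 (-0.703), the uridylase gene Tut7 (-0.81), Pan3 (-0.82) and, less stably, Lsm1. The 6 that rose were Tob1 and the LSM ring genes Lsm2 to Lsm6, which serve both decapping and splicing, with log2 differences of 1.78 for Lsm3, 1.08 for Lsm4, under 1 FPKM in every WT library, and 0.900 for Lsm6. Without WT replicate 3 those 3 rose, and Tob1, Lsm2 and Lsm5 did not, and with no filter 2 rose and 10 fell.

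Of 20 tested genes of the RNA exosome and its cofactors, 9 fell and 3 rose (median -0.57). Besides Exosc3, the falls included Hbs1l (11.7 FPKM in WT and 2.14 FPKM in KO), Mphosph6, an abundant mRNA of an exosome cofactor (1493 FPKM in WT and 698 FPKM in KO; log2 difference -1.11), the helicase gene Mtrex (-1.03), Zcchc8 (-0.97) and Exosc4 (-1.07). Rbm7, the RNA-binding subunit of the nuclear exosome targeting complex, was higher (44.3 FPKM in WT and 88.8 FPKM in KO; 0.98), as were C1d and Wdr61, both at low levels. With no filter 3 fell and 1 rose, and 1 rose in the fit of all 18 libraries.

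Genes of polyadenylation and poly(A) binding went both ways, with 9 of 32 tested members higher and 5 lower, or 6 and 2 with no filter. Cpeb4, which encodes a CPE-binding protein, was found at 18.6, 17.2 and 14.6 FPKM in the WT libraries and 3.07, 1.51 and 3.18 FPKM in the KO libraries (log2 difference -2.34, SE 0.25, adjusted p = 1.11e-05). Paip1, which stimulates translation with the poly(A)-binding protein, stood at 358, 874 and 485 FPKM in the WT libraries and 188, 227 and 224 FPKM in the KO libraries (log2 difference -1.32, SE 0.28, adjusted p = 0.00181), in the opposite direction to its antagonist Paip2. Pabpc1l, the poly(A)-binding protein of oocytes, had 17.5, 7.36 and 10.1 FPKM in the WT libraries and 54.5, 57.2 and 39.1 FPKM in the KO libraries (log2 difference 2.08, SE 0.28, adjusted p = 7.02e-05). The 2 poly(A)-binding protein genes Pabpn1l and Pabpc1l stood on opposite sides of WT. The cleavage factor genes Nudt21 (1.84), Cpsf4 (0.364 FPKM in WT and 4.61 FPKM in KO; 1.98), Cstf2 (1.14) and Fip1l1 (0.93) rose, of which Cpsf4 was under 1 FPKM in every WT library and passed the filter only through KO. Among 35 tested translation initiation factors 7 rose, with Eif4e, the cap-binding factor, at 34.7 FPKM in WT and 91.2 FPKM in KO and Eif1b at 137 FPKM in WT and 427 FPKM in KO, and 5 fell, with Eif2b1 at 284 FPKM in WT and 137 FPKM in KO and Eif4e3 at 108 FPKM in WT and 54.6 FPKM in KO. Without WT replicate 1, WT replicate 3 or KO replicate 1, 4 of the initiation factors rose, and 3 fell without KO replicate 1 and 8 without KO replicate 3. With no filter 3 rose and 2 fell, and 3 fell in the fit of all 18 libraries.

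Of 33 tested dormant mRNAs recruited during maturation, 15 fell and 0 rose (median -0.51), where 22.5% of all genes tested fell. Orc6, a subunit of the origin recognition complex, was found at 145, 159.9 and 139.6 FPKM in the WT libraries and 59.8, 54.7 and 60.9 FPKM in the KO libraries (log2 difference -1.33, SE 0.19, adjusted p = 0.000124). Fbxo43, or EMI2, which inhibits the anaphase-promoting complex at metaphase II, stood at 118, 73.1 and 97.9 FPKM in the WT libraries and 31.1, 31.8 and 27.6 FPKM in the KO libraries (log2 difference -1.62, SE 0.22, adjusted p = 7.81e-05). Mos, the kinase that activates MAPK in oocytes, had 259, 221 and 189.8 FPKM in the WT libraries and 92.1, 95.5 and 110.2 FPKM in the KO libraries (log2 difference -1.15, SE 0.205, adjusted p = 0.000532). Every WT library exceeded every KO library in these genes. Plat, tissue plasminogen activator, stood at 420.5 FPKM in WT and 208 FPKM in KO (log2 difference -1.03). Slbp, the histone mRNA binding protein gene, stood at 1135 FPKM in WT and 696 FPKM in KO (-0.71) and the checkpoint kinase gene Bub1b at 423 FPKM in WT and 250.2 FPKM in KO (-0.77). Btg4, Cnot7, Cnot6l, Dcp1a, Dcp2, Dazl, Obox5, Aurkc and Il7 are the rest of the 15. Ccnb1, cyclin B1, was found at 519, 466 and 476 FPKM in the WT libraries and 389, 394 and 258 FPKM in the KO libraries and missed the threshold (adjusted p = 0.0681; 0.048 without KO replicate 2). With no filter 9 fell and 0 rose. Without WT replicate 3 or KO replicate 1, and with quantile normalization, voom or the replicate block, 1 rose.

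Among genes of the zona pellucida and egg surface, 8 of 18 tested rose and 4 fell, or 7 and 1 with no filter. All 3 mouse zona glycoprotein genes rose. Zp3, which encodes the main partner of ZP2 in the zona matrix, stood at 188, 117 and 169 FPKM in the WT libraries and 1434, 1438 and 917 FPKM in the KO libraries (log2 difference 2.99, SE 0.25, adjusted p = 1.65e-06). Zp1, the crosslinking zona protein gene, had 62.5, 27.6 and 55.01 FPKM in the WT libraries and 267, 339.8 and 195 FPKM in the KO libraries (log2 difference 2.49, SE 0.297, adjusted p = 2.69e-05). Uchl1, an ubiquitin hydrolase abundant in oocytes, was found at 50.01, 41.9 and 37.1 FPKM in the WT libraries and 414, 185 and 403 FPKM in the KO libraries (log2 difference 2.85, SE 0.29, adjusted p = 7.44e-06). The KO range of each lay wholly above the WT range. Oosp2, an oocyte secreted protein gene, was higher (63.2 FPKM in WT and 152 FPKM in KO; 1.24), while its relative Oosp3 was lower (622 FPKM in WT and 124 FPKM in KO; -2.28). The other falls were Plat, Itga6 (-1.14) and Cd55, whose call was lost without any 1 of WT replicates 1 and 3 and KO replicates 1 and 2.

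Of 35 tested maternal effect genes, those of the subcortical maternal complex included, 16 rose and 3 fell (median 0.56). The complex lies beneath the egg membrane and is needed for cleavage of the embryo. Padi6, a peptidylarginine deiminase of the cytoplasmic lattices, stood at 281, 378 and 309.8 FPKM in the WT libraries and 2181, 3204 and 1078 FPKM in the KO libraries (log2 difference 2.61, SE 0.32, adjusted p = 2.96e-05). Tle6, which binds NLRP5 and OOEP in the complex, had 125, 79.2 and 139.9 FPKM in the WT libraries and 497, 826 and 503 FPKM in the KO libraries (log2 difference 2.395, SE 0.26, adjusted p = 1.45e-05). Nlrp5 was found at 167, 181 and 197 FPKM in the WT libraries and 636, 1024 and 520.0 FPKM in the KO libraries (log2 difference 1.94, SE 0.25, adjusted p = 4.04e-05). Each KO library was above all WT libraries, and the KO values were spread more widely than the WT values. Ooep stood at 554 FPKM in WT and 1546 FPKM in KO (1.45) and Nlrp14 at 2144 FPKM in WT and 6536 FPKM in KO (1.53). Of the imprint and chromatin factors, Zfp57 was higher (302 FPKM in WT and 1532 FPKM in KO; 2.33), as were Dnmt3l (2.11) and Kdm1b (1.47), while Dnmt1 (406 FPKM in WT and 232 FPKM in KO; -0.78; adjusted p = 0.0648 without KO replicate 1) and Tet3 (114 FPKM in WT and 58.9 FPKM in KO; -0.95) were lower. Without KO replicate 1, 1 of the list fell, and in the fit of all 18 libraries 0 fell. With no filter 11 rose and 0 fell. Many members belong to families of near copies (Nlrp4, Nlrp9, Oog, Obox, Tcl1b), among which the authors' counting could split reads.

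Oocyte transcription and growth factors were called in 8 of 31 members each way, but with no filter 5 rose and 1 fell. Figla, a transcription factor of zona genes, was listed at 1.49, 1.24 and 0.0736 FPKM in the WT libraries and 11.6, 7.396 and 9.07 FPKM in the KO libraries (log2 difference 2.49, SE 0.302, adjusted p = 2.96e-05), and Lhx8 stood at 14.8 FPKM in WT and 41.1 FPKM in KO (1.42), in the same direction as Nobox. Sohlh2 (-1.64), the linker histone gene H1foo (11560.0 FPKM in WT and 5673 FPKM in KO; -1.04), Obox2 (-1.12), Tcl1 (-0.99) and Tcl1b1 (-1.26) were lower.

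Genes of meiotic cell cycle control were mixed. Of 38 tested genes of cyclin-dependent kinase and MAPK control, 13 rose and 6 fell. Besides Mapk3 and Ppp2r2b, Cdc25b, the phosphatase that activates CDK1 when meiosis resumes, stood at 1.94, 1.61 and 1.98 FPKM in the WT libraries and 6.53, 5.82 and 6.53 FPKM in the KO libraries (log2 difference 1.36, SE 0.21, adjusted p = 0.000173). Ensa, an inhibitor of PP2A, stood at 2.04 FPKM in WT and 6.804 FPKM in KO (1.36), and Ccnb2, cyclin B2, at 15.7 FPKM in WT and 31.6 FPKM in KO (0.96). The CDK subunit genes Cks1b (286 FPKM in WT and 146 FPKM in KO; -0.96) and Cks2 (-1.28) fell, with Mos, Cdc25a and Mastl, and without WT replicate 1 the count of falls was 3. With no filter 8 of the list rose and 1 fell. Of 31 genes of the anaphase-promoting complex and the spindle checkpoint 8 rose and 7 fell (6 and 4 with no filter), among them Fzr1, its activator CDH1 (1.79 FPKM in WT and 6.96 FPKM in KO), and Anapc10 (22.8 FPKM in WT and 8.13 FPKM in KO; -1.398). Of 58 genes of the spindle, kinetochore and cytokinesis 13 rose and 12 fell (9 and 7 with no filter). Birc5, or survivin, of the chromosomal passenger complex had 117, 129 and 109.8 FPKM in the WT libraries and 672, 427 and 710.3 FPKM in the KO libraries (log2 difference 2.303, SE 0.23, adjusted p = 6.64e-06). Cenph, a kinetochore protein gene, was found at 124, 155 and 153 FPKM in the WT libraries and 41.3, 41.5 and 60.9 FPKM in the KO libraries (log2 difference -1.59, SE 0.22, adjusted p = 8.7e-05). The 2 moved in opposite directions without overlap between the groups.

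Cohesin, condensin and shugoshin genes fell in 13 of 25 tested members and rose in 2 (median -0.58). Smc3, a core cohesin subunit, stood at 56.6, 42.3 and 40.8 FPKM in the WT libraries and 16.8, 10.6 and 20.4 FPKM in the KO libraries (log2 difference -1.52, SE 0.25, adjusted p = 0.000339). Stag2, another cohesin subunit, had 7.31, 7.18 and 5.95 FPKM in the WT libraries and 2.74, 1.53 and 1.97 FPKM in the KO libraries (log2 difference -1.36, SE 0.23, adjusted p = 0.000346). Esco1, an acetyltransferase of SMC3, was found at 49.6, 68.4 and 54.9 FPKM in the WT libraries and 12.7, 8.64 and 11.99 FPKM in the KO libraries (log2 difference -2.28, SE 0.23, adjusted p = 6.9e-06). WT and KO did not overlap in these 3 genes. Sgo2a, the shugoshin that protects centromeric cohesin in meiosis, stood at 5.196 FPKM in WT and 2.14 FPKM in KO (-0.97), and the condensin genes Smc4 (351 FPKM in WT and 220.2 FPKM in KO; -0.68; adjusted p = 0.0632 without KO replicate 1) and Ncapg (95.3 FPKM in WT and 51.1 FPKM in KO; -0.897) fell. Smc1a and Ncaph rose. Without KO replicate 1, 8 fell and 0 rose, and without WT replicate 3 the count of rises was 0, and without WT replicate 2 or KO replicate 3 it was 1. With no filter 9 fell and 0 rose.

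Of 37 tested genes of the actin cytoskeleton 17 rose and 4 fell, or 11 and 1 with no filter. Arpc1a, a subunit of the ARP2/3 complex, stood at 2.86, 1.89 and 2.13 FPKM in the WT libraries and 24.7, 22.5 and 25.9 FPKM in the KO libraries (log2 difference 2.95, SE 0.22, adjusted p = 6.85e-07). Pfn1, profilin, had 9.03, 7.94 and 6.67 FPKM in the WT libraries and 24.9, 22.8 and 35.4 FPKM in the KO libraries (log2 difference 1.68, SE 0.23, adjusted p = 8.38e-05). Capzb, a barbed-end capping protein gene, was found at 2.18, 2.93 and 1.62 FPKM in the WT libraries and 10.9, 10.3 and 13.1 FPKM in the KO libraries (log2 difference 1.95, SE 0.23, adjusted p = 2.72e-05). The groups did not overlap in these 3, as in 54.6% of all genes tested. Tmsb10 and Cfl1 are members too, but were chosen above for having no overlap. Actg1 (1.93 FPKM in WT and 13.7 FPKM in KO; 2.299) and Cfl2 (1.67) rose too. Actr2 (-0.98), Capza2 (-1.16), Myl12b and Arpc4 fell, and without WT replicate 1 or KO replicate 2 the falls numbered 2.

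Nuclear genes of the respiratory chain and ATP synthase rose in 41 of 55 tested members and fell in 0 (median 1.02). Of the 78 members in the table the other 23 did not reach the filter, and 12 of the 55 were under 1 FPKM in every WT library. With no filter, 24 rose and 0 fell. Cox6a1, a subunit of cytochrome c oxidase, stood at 26.2, 21.2 and 19.9 FPKM in the WT libraries and 144, 105 and 219.9 FPKM in the KO libraries (log2 difference 2.69, SE 0.26, adjusted p = 5.95e-06). Ndufb3 had 8.94, 8.84 and 2.902 FPKM in the WT libraries and 83.4, 46.1 and 88.02 FPKM in the KO libraries (log2 difference 3.29, SE 0.35, adjusted p = 1.11e-05). Atp5f1, of the stalk of ATP synthase, was found at 8.05, 7.004 and 4.42 FPKM in the WT libraries and 30.8, 29.6 and 34.7 FPKM in the KO libraries (log2 difference 2.15, SE 0.24, adjusted p = 1.45e-05). All KO values of these genes exceeded all WT values. Members from each complex were among the rises, such as Sdhd of complex II (46.2 FPKM in WT and 181 FPKM in KO; 1.87), Uqcrh of complex III (1.398 FPKM in WT and 5.62 FPKM in KO; 1.45) and Cox6c of complex IV (13.3 FPKM in WT and 57.3 FPKM in KO; 1.95). Without WT replicate 1 or KO replicate 3, 1 member fell.

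**Figure D4:**
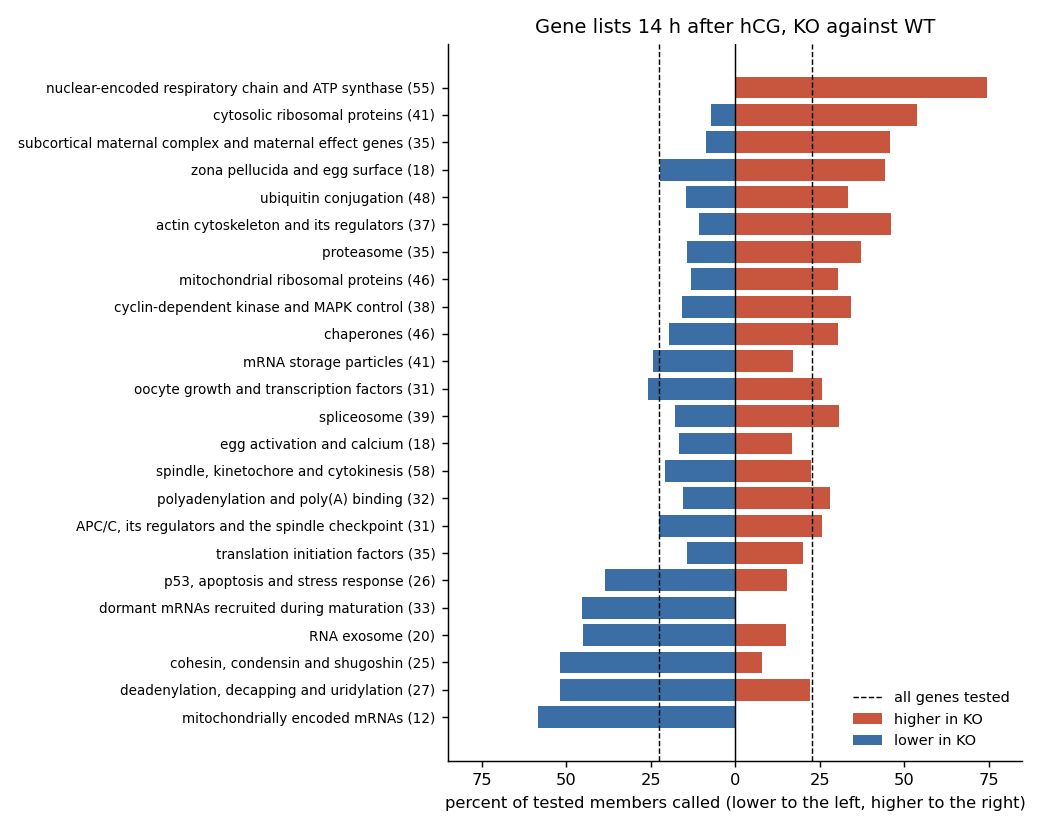
Percent of the tested members of each gene list (number tested in parentheses) called higher in KO (red, to the right) and lower (blue, to the left), ordered by the median log2 difference; dashed lines mark the 22.7% and 22.5% of all genes tested. Respiratory chain genes (41 of 55 higher) and ribosomal protein genes (22 of 41 higher) stand at the top, and mitochondrially encoded mRNAs (7 of 12 lower) at the bottom.

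The mRNAs made inside mitochondria from the mitochondrial genome went the other way, with 7 of 12 lower and 0 higher (median -0.77). mt-Nd2 stood at 1295, 2152 and 2192 FPKM in the WT libraries and 711, 501 and 1372 FPKM in the KO libraries (log2 difference -1.21, SE 0.32, adjusted p = 0.00785). mt-Nd5 had 234, 352 and 383 FPKM in the WT libraries and 162, 137 and 183 FPKM in the KO libraries (log2 difference -0.98, SE 0.23, adjusted p = 0.00374). mt-Atp6 was found at 304, 551 and 387 FPKM in the WT libraries and 213, 180.5 and 256 FPKM in the KO libraries (log2 difference -0.904, SE 0.24, adjusted p = 0.00809). Mitochondrial genes took 6.55% to 10.7% of all FPKM in WT libraries and 5.39% to 6.98% in KO libraries, ranges that overlap. In mt-Nd2 the groups overlapped. With no filter 0 of the 12 passed, where limma called 2169 of 27874 genes, and in the fit of all 18 libraries 4 were lower.

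Of 82 cytosolic ribosomal protein genes 41 were tested, of which 22 rose and 3 fell (median 0.81), and 5 of the 41 were under 1 FPKM in every WT library. Rpl32 stood at 29.01, 35.03 and 18.97 FPKM in the WT libraries and 148, 113 and 227 FPKM in the KO libraries (log2 difference 2.498, SE 0.28, adjusted p = 1.64e-05). Rplp1, an acidic stalk protein gene, had 20.9, 31.4 and 26.9 FPKM in the WT libraries and 147, 101 and 254 FPKM in the KO libraries (log2 difference 2.53, SE 0.296, adjusted p = 2.17e-05), and Rplp0 had 35.4, 27.8 and 26.99 FPKM in the WT libraries and 149, 90.9 and 115 FPKM in the KO libraries (log2 difference 1.92, SE 0.23, adjusted p = 2.73e-05). The genotypes did not overlap in any of them. Rpl17 was found at 229, 442 and 295 FPKM in the WT libraries and 163, 128 and 119.6 FPKM in the KO libraries and was one of the 3 that fell (log2 difference -1.19, SE 0.25, adjusted p = 0.00173), and Rps27l was another (244 FPKM in WT and 111 FPKM in KO; -1.14). With no filter 15 rose and 0 fell. Ribosomal protein genes have many processed pseudogenes, to which the authors' counting could assign part of their reads. Of 46 mitochondrial ribosomal proteins tested, 3 of them under 1 FPKM in every WT library, 14 rose, with Mrps6, 1 of those 3, at 0.764 FPKM in WT and 10.6 FPKM in KO (2.68) and Mrpl9 at 8.97 FPKM in WT and 32.00 FPKM in KO (1.73), and 6 fell, with Mrps31 at 15.1 FPKM in WT and 4.31 FPKM in KO (-1.64), or 10 without KO replicate 3.

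Of 48 tested genes of ubiquitin conjugation 16 rose and 7 fell, or 9 rose without WT replicate 3. Skp1a, a core subunit of SCF ubiquitin ligases, stood at 614, 815 and 654 FPKM in the WT libraries and 4780.3, 4309 and 3955 FPKM in the KO libraries (log2 difference 2.65, SE 0.201, adjusted p = 8.33e-07). Sumo3 had 14.6, 9.78 and 13.3 FPKM in the WT libraries and 100.3, 98.8 and 81.2 FPKM in the KO libraries (log2 difference 2.81, SE 0.22, adjusted p = 1.07e-06). Ube2a, an E2 enzyme of histone H2B and also a maternal effect gene, was found at 8.35, 4.79 and 4.28 FPKM in the WT libraries and 55.4, 47.7 and 44.1 FPKM in the KO libraries (log2 difference 2.92, SE 0.25, adjusted p = 2.1e-06). All 3 rose without overlap. Ubb, a polyubiquitin gene, stood at 611 FPKM in WT and 2498 FPKM in KO (2.02) and Nedd8 at 33.7 FPKM in WT and 136 FPKM in KO (1.92), while Sumo2 was lower (343 FPKM in WT and 139 FPKM in KO; -1.29), opposite to Sumo3. Without WT replicate 1 or KO replicate 2, 4 of the list fell. With no filter 9 rose and 4 fell, and with quantile normalization 11 fell. Of 35 proteasome genes 13 rose, with Psmb2 at 104 FPKM in WT and 388 FPKM in KO (1.88), and 5 fell, with Psmc1 at 32.3 FPKM in WT and 10.8 FPKM in KO (-1.48), or 3 without WT replicate 1, WT replicate 3 or KO replicate 1 or in the fit of all 18 libraries. With no filter 6 rose and 2 fell.

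Chaperone genes rose in 14 of 46 members and fell in 9. Hspa5, or BiP, of the endoplasmic reticulum stood at 29.3 FPKM in WT and 92.5 FPKM in KO (1.61), and its cochaperone Dnajc3 at 233 FPKM in WT and 85.8 FPKM in KO (-1.43). Cct4 rose, and Cct5, another subunit of the same chaperonin, fell (115 FPKM in WT and 57.8 FPKM in KO; -0.96). Likewise the prefoldin genes Pfdn5 (13.6 FPKM in WT and 45.9 FPKM in KO; 1.57) and Pfdn4 moved apart. Of 26 genes of p53, apoptosis and stress response, 10 fell and 4 rose (median -0.37), and 3 of the 26 were under 1 FPKM in every KO library. Bcl2l10, an abundant oocyte mRNA of the BCL2 family, stood at 15523, 15180.0 and 16208 FPKM in the WT libraries and 4585, 4187 and 5356 FPKM in the KO libraries (log2 difference -1.74, SE 0.19, adjusted p = 1.52e-05). Atf4, a transcription factor of the integrated stress response, had 73.3, 59.98 and 70.8 FPKM in the WT libraries and 144, 281 and 305 FPKM in the KO libraries (log2 difference 1.75, SE 0.27, adjusted p = 0.000171). Ern1, or IRE1, the sensor of unfolded protein, stood at 139 FPKM in WT and 45.4 FPKM in KO (-1.63), and Ppp1r15a, or GADD34, at 23.9 FPKM in WT and 7.14 FPKM in KO (-1.61). Without KO replicate 1, 2 of the list rose, as in the fit of all 18 libraries, and with no filter 1 rose and 6 fell. Spliceosome genes rose in 12 of 39 members, or in 6 without KO replicate 1 and 7 without WT replicate 3, and fell in 7, with 3 each way with no filter.

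Of 18 tested genes of calcium signalling and egg activation, 3 rose and 3 fell. These are 16.7% each way, below the 22.7% and 22.5% of all genes tested. Calm2, calmodulin, stood at 55.6 FPKM in WT and 177 FPKM in KO (1.71), with Calm3 and Ppp3ca also higher. The zinc transporter gene Slc39a10 stood at 170.5 FPKM in WT and 74.8 FPKM in KO (-1.18), with Slc30a5 and the calcium sensor gene Stim2 also lower, and 5 fell without KO replicate 3, with median-of-ratios scaling or with voom. Of 15 genes of the 2-cell embryo in the table only 3 were tested: Zscan4d was higher (0.815 FPKM in WT and 8.05 FPKM in KO; 1.904), though not called with no filter, Tcstv3 lower (16.4 FPKM in WT and 7.44 FPKM in KO; -1.05), and 2 fell without WT replicate 3 or KO replicate 3.

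The genotype difference at 14 h was then set against those at MI and GV, which share no library with it, by the difference of differences in a fit of all 18 libraries over the same 8133 genes. At MI 336 genes (4.13%) were higher and 1103 (13.6%) lower in KO, and at GV 1088 (13.4%) and 676 (8.31%). In the same fit 1483 genes were higher and 1445 lower in KO at 14 h. The genes were filtered on the 14 h libraries alone, so genes expressed only at MI or GV are not counted. The difference at 14 h exceeded that at MI in 433 genes (5.32%) and lay below it in 4 (0.0492%), or 5.37% in all. It exceeded that at GV in 452 genes (5.56%) and lay below it in 274 (3.37%), or 8.93% in all. Without 1 library the counts ranged from 242 to 480 above and 0 to 28 below MI, and from 203 to 808 above and 46 to 1899 below GV. All 20 largest falls were lower in KO at GV and at MI as well, and none had a called difference of size from MI, while 3 had one from GV. Of the 20 largest rises 11 were higher in KO at GV and 10 at MI, 16 had a larger difference at 14 h than at MI, and 15 than at GV. Both sets were chosen for the size of their difference at 14 h, which favours a larger difference there, so these counts are a description only.

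Zp2 had the largest such difference from MI among the genes named. Its level was 2834 ± 671 FPKM in WT and 2734 ± 726 in KO at GV, 1538 ± 571 and 1474 ± 234 at MI, and 50.3 ± 1.43 and 1175 ± 217 at 14 h (mean ± SD, n = 3; difference of differences 4.498, SE 0.41, adjusted p = 5.06e-06). The genotypes overlapped at GV and at MI, and at 14 h every WT library was far below every KO library. At MI, Paip2 was at 319 ± 30.02 FPKM in WT oocytes and 371 ± 38.2 in KO oocytes, and it was at 29.8 ± 1.77 and 335 ± 24.8 FPKM at 14 h (difference of differences 3.23, SE 0.43, adjusted p = 0.000179). Ergic3, of the early secretory pathway, stood at 27.01 ± 4.52 and 21.6 ± 3.51 FPKM at MI and at 1.93 ± 0.322 and 24.3 ± 1.59 at 14 h (difference of differences 3.43, SE 0.300, adjusted p = 4.63e-06). Cd9 stood at 147 ± 43.8 and 270.3 ± 80.9 FPKM at MI and at 12.6 ± 4.85 and 239.7 ± 15.1 at 14 h (difference of differences 3.33, SE 0.45, adjusted p = 0.000208). In these 4 genes the KO mean at 14 h was within the range of levels seen at MI, and the WT mean was not.

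Tmsb10 and Chchd2 differed at MI already, by log2 1.26 (adjusted p = 0.0118) and 1.05 (adjusted p = 0.0402), and the difference at 14 h was larger by 3.67 (adjusted p = 0.000148) and 3.51 (adjusted p = 0.000311). Over the 20 largest rises, the WT mean at 14 h was under 50% of the WT mean at MI in 19, and the KO mean at 14 h under 50% of the KO mean at MI in 7. Over the 20 largest falls, the WT mean at 14 h was above that at MI in 15, and the KO mean in 8. The counts for both sets use the WT and KO libraries by which the genes were chosen. That choice favours a low WT level at 14 h among the rises and a high one among the falls. The same counts were not made over all genes tested, so these are a description only.

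Zc3h6 was at 75.1 ± 9.24 FPKM in WT oocytes and 3.41 ± 0.662 in KO oocytes at GV, at 76.7 ± 10.05 and 4.23 ± 0.705 at MI and at 117 ± 13.2 and 4.38 ± 0.566 at 14 h. Its low KO level was thus present at each collection. Kdm7a increased in WT from 6.01 ± 0.441 FPKM at GV to 19.4 ± 7.48 at MI and 32.7 ± 4.93 at 14 h, while KO stood at 1.08 ± 0.453, 1.11 ± 0.122 and 1.22 ± 0.481, and the difference at 14 h minus that at GV was -2.16 (adjusted p = 0.00229). Rif1, a factor of DNA replication timing, was not called at GV (14.6 ± 6.27 FPKM in WT, 16.2 ± 8.54 in KO; adjusted p = 0.939). At 14 h it had 87.2, 85.2 and 67.2 FPKM in the WT libraries and 20.3, 9.26 and 21.96 FPKM in the KO libraries, and the difference at 14 h minus that at GV was -2.28 (adjusted p = 0.0256). The 4 genes below their MI difference included Rpl17 (-1.37, adjusted p = 0.0357) and Sall4, a zinc finger transcription factor gene (-1.300, adjusted p = 0.0477). Sall4 was higher in KO at MI (79.1 and 226 FPKM) and stood at 227 and 284 FPKM at 14 h.

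**Figure D5:**
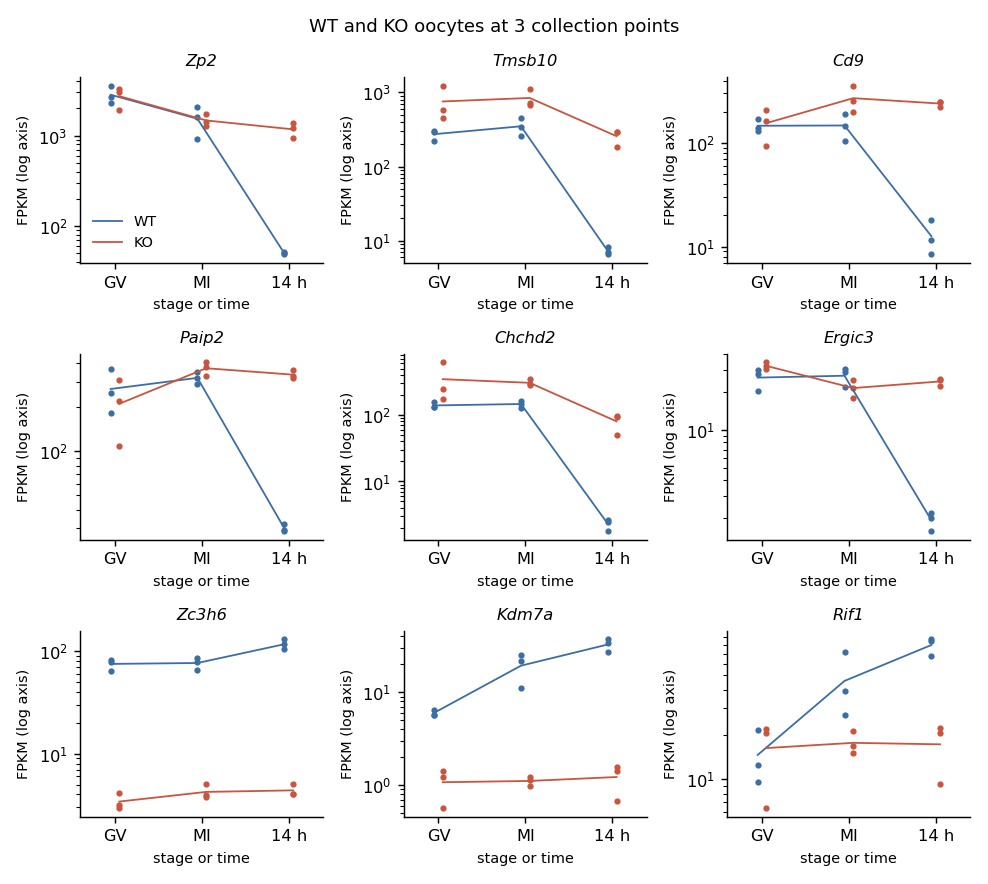
FPKM (log axis) of 9 genes in each of the 18 libraries at GV, MI and 14 h after hCG, with lines through the means of WT (blue) and KO (red), 3 libraries a group. Zp2, Paip2 and Ergic3 overlap between the genotypes at MI and not at 14 h, while Zc3h6 is low in KO at all 3 collections.

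By list, the difference at 14 h exceeded that at MI in 9 of 55 respiratory chain genes (16.4%), in 6 of 35 maternal effect genes (17.1%), in 6 of 41 cytosolic and 6 of 46 mitochondrial ribosomal protein genes (14.6% and 13.0%), and in 5 of 18 genes of the zona and egg surface (27.8%), against 5.32% of all genes. No tested dormant mRNA, exosome gene or cohesin and condensin gene had a called difference from MI in either direction. Of all genes 5.37% had one, and 0.0492% had one below MI, so these counts do not show that the difference was unchanged. The median difference from MI was -0.16 for dormant mRNAs, 0.10 for exosome genes and -0.38 for cohesin and condensin genes, against 0.05 for all genes. At MI itself dormant mRNAs were lower in 8 and higher in 1 of 33 members, and at GV in 15 and 2. Of the 27 deadenylation and decapping factors 9 were lower and 1 higher at MI, and 4 and 2 at GV. Of the 55 respiratory chain genes 0 were higher and 2 lower at MI, and 12 were higher and 0 lower at GV, where 13.4% of all genes were higher. In the same fit of all 18 libraries, 34 respiratory chain genes were higher and 0 lower at 14 h. In it 11 dormant mRNAs were lower and 0 higher at 14 h, and 11 deadenylation and decapping factors lower and 4 higher.

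Genes were also classed by their change from GV to MI in WT, from libraries that the 14 h comparison does not use. Of 413 genes whose WT level rose at least 2-fold from GV to MI, 205 (49.6%) were lower in KO at 14 h and 17 (4.12%) higher, with a median log2 difference of -0.65. Of 151 genes whose WT level fell at least 2-fold over the same interval, 47 (31.1%) were higher and 36 (23.8%) lower, with a median of 0.11. The remaining 7569 genes were higher in 23.6% and lower in 21.0%. By gene type, 113 of 341 long intergenic noncoding RNAs (33.1%) were lower in KO and 51 (14.96%) higher.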

How the data were processed

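The series holds 18 libraries, each of 15 mouse oocytes, primed with oligo(dT) and amplified by Smart-seq2, per the labels' protocols. The deposited values are FPKM per gene, computed by the authors and used as deposited; the submitters' processing notes list mm10 and DESeq2 1.38.3 but give neither a role. The sources used here do not give the aligner, counter, annotation or strand. Identifiers were matched to GENCODE vM21 (27829 of 27874 genes). FPKM times exon length gave whole reads, within 0.05 read, for 92.8% to 93.1% of nonzero values of the 6 libraries, from which depth was read; depth covers counting error only, since PCR copies of 1 molecule were not marked.

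Genes with at least 1 FPKM in 3 or more of the 6 libraries were fitted as log2(FPKM + 1) with limma 3.58.1 (R 4.3.3), with a variance trend and no covariate, over the 6 libraries alone, which leaves 4 residual degrees of freedom. Differences between stages used 1 limma fit of all 18 libraries. P-values are two-sided, Benjamini-Hochberg adjusted over all genes tested, with a threshold of 0.05. Same-numbered WT and KO replicates had deviations that correlated at 0.113, -0.108 and -0.096, so numbers were not taken to pair libraries. A simulation of the 14 h comparison altered 200 of 8133 genes, whereas 3680 were called in the data. It recovered 44% of genes altered by a log2 of 1 and 89% of those altered by 2. False calls made up 5.67% of its 141 calls. The Benjamini-Hochberg cutoff depends on how many genes differ, so these shares do not measure the power or the false calls of the real comparison.

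The comparison, the 29 gene lists and the rules were chosen with earlier results of these data known. Named genes were Lsm14b, Lsm14a, the 20 largest rises and falls called at a mean of at least 5 FPKM without overlap (predicted genes, clones and pseudogenes left out by name), list members with the smallest p (up to 6 a list, or any member of the first 4 lists), and the 8 largest called stage differences each way. Other list members named in the text were chosen after their values were seen. A few genes that these rules select are not reported here. The alternatives tried were TPM, quantile and median-of-ratios scaling, pseudocounts of 0.1 and 5, a minimum of 5 FPKM or none, 1 fit of all 18 libraries, a replicate block, voom on the recovered reads, a 2-fold minimum, and leaving out each library. 3′ UTRs came from GENCODE vM21 transcripts. Figures were drawn with matplotlib 3.10.9, and tables were made in Python 3.11.15 with pandas 2.3.3, numpy 2.4.6 and scipy 1.17.1.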

Additional observations from a re-analysis of the deposited data

Results flagged for a closer look

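Several named genes had a KO against WT difference at 14 h that itself differed from that at an earlier collection (limma, difference of the log2 differences, adjusted p under 0.05). Above MI stood Zp2 (4.50), Tmsb10 (3.67), Chchd2 (3.51), Ergic3 (3.43), Pin1rt1 (3.35), Cd9 (3.33) and Paip2 (3.23). Below MI stood Sall4 (-1.300) and Rpl17 (-1.37).

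Above GV stood Zp2 (4.57), Cd9 (4.18), Paip2 (3.85), Tmsb10 (3.60), Pde6d (3.59), Abcg1 (3.54) and Sh3gl1 (3.49). Pde6d was lower in KO at GV (475 FPKM in WT and 181 in KO) and higher at 14 h (27.6 and 121 FPKM), as was the cholesterol transporter gene Abcg1 (19.6 and 6.904 FPKM at GV, 4.598 and 23.03 at 14 h). Below GV stood Ofd1 (-1.92), mt-Nd2 (-2.08), Phf3 (-2.11), Kdm7a (-2.16), Zmat2 (-2.19), Abcf1 (-2.23), Rif1 (-2.28) and the linker histone gene Hist1h1a (-2.56). Their adjusted p by limma was 0.00229 for Kdm7a and 0.0228 to 0.0473 for the others. The call of Ofd1 at 14 h was lost without WT replicate 1, 2 or 3 or KO replicate 2. KO GV replicates 2 and 3 deviated from their group by an SD of 0.536 and 0.497 over genes, against 0.189 to 0.273 in the 14 h libraries.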

How the results depend on the processing

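Against 1849 genes higher and 1831 lower in KO at 14 h, limma called 1074 and 1095 with no filter (27874 genes tested), 1057 and 1151 with a filter at 5 FPKM (4351 genes tested), and 991 and 779 with a 2-fold minimum. Pseudocounts, scalings, the fit of all 18 libraries and voom gave 1483 to 2061 higher and 1445 to 2158 lower. Leaving out 1 library gave 1447 to 2047 higher and 1393 to 1953 lower. Replicate numbers were not taken to pair the libraries, though whether they do is not known. With the replicate number as a block 1924 were higher and 1868 lower. Of the 210 genes whose difference at 14 h is described, 207 were called and none changed direction. Of the 207, 179 were called whichever library was left out, and 134 also in every other fit that tested them.

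The difference from MI was called above 0 in 433 genes and below 0 in 4. This became 265 and 1 with a pseudocount of 5, 548 and 7 with 0.1, 296 and 28 with median-of-ratios, 450 and 147 with quantile normalization, and 370 and 2 with the replicate block. Without 1 library it was 242 to 480 above (242 without WT MI replicate 2, 256 without KO 14 h replicate 1, 264 without KO 14 h replicate 3, 274 without WT 14 h replicate 2 or 3, 282 without KO MI replicate 3) and 0 to 28 below. The difference from GV (452 above, 274 below) became 829 and 381 with median-of-ratios, 743 and 762 with quantile normalization, and 397 and 211 with the replicate block. Without 1 library it was 203 to 808 above and 46 to 1899 below, with 808 and 1899 without KO GV replicate 3. The count above also moved over 1.5 times without WT GV replicate 1 or 2, WT 14 h replicate 2 or 3, or KO 14 h replicate 1 (203 to 286), and the count below without each library but KO 14 h replicate 3 (46 to 112 where it dropped).

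A pseudocount of 5 brought the median log2 difference of the respiratory chain list to 0.46, of deadenylation factors to -0.36, of exosome genes to -0.34 and of p53 and stress genes to -0.18, and a filter at 5 FPKM brought that of cytosolic ribosomal proteins to 1.56. Of 50 counts over the gene lists other than markers, 11 moved over 1.5 times with the filter at 5 FPKM and 33 with the 2-fold minimum, both of which call fewer genes, 32 with no filter and 9 in the fit of all 18 libraries.

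With 3 libraries a group, genes with small differences are missed. FPKM are relative to the library total, so a change in total mRNA per oocyte cannot be seen.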

Other observations

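Genes near Lsm14b on chromosome 2 were also counted. Within 10 Mb of it 40 genes were tested, of which 7 (17.5%) were higher and 11 (27.5%) lower in KO, and within 2 Mb 6 of 25 each way (24.0%), against 22.7% and 22.5% of all genes. Of the 20 largest falls 4 lie on chromosome 2: Tfap2c and Pfdn4 at 7.47 and 9.51 Mb from Lsm14b, and Zc3h6 and Lrrc57 at 51 and 59.4 Mb. Of the 20 largest rises 1 lies there. Chromosome 2 held 592 of the 8133 genes tested, of which 20.95% were higher and 20.8% lower in KO.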
